A study of Homo sapiens with 12 samples.

Results

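The first 60 Mb of chromosome 3, most of its short arm, were examined for H3K27ac, the acetylated form of histone H3 at lysine 27. All peaks that lay there in the 12 deposited lists were taken: 12502 of the 573987 peaks on chromosomes 1 to 22 and X, with 25823 more on the rest of chromosome 3. The stretch held 60 windows of 1 Mb, 446 protein-coding genes and 1311 consensus peaks, a consensus peak being a stretch covered in at least 3 of the 12 libraries. The stretch was chosen by its covered length in knockout against scramble libraries, so every value that sets knockout against scramble is a description with no test.

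The mark was profiled by CUT&RUN, in which an antibody directs a nuclease to release bound chromatin, in RPMI 8226, an established multiple myeloma line. Cells with a CEBPB knockout given 10 µM dexamethasone for 2 h (KO Dex), knockout cells given DMSO (KO DMSO), scramble control cells given the same dexamethasone (SCR Dex) and scramble cells given DMSO (SCR DMSO) had 3 libraries each. CEBPB encodes C/EBPβ, a transcription factor, and dexamethasone activates the glucocorticoid receptor. The series asks how loss of this factor bears on enhancer responses to the drug. The sources used here do not give whether the knockout cells were 1 clone or a pool, nor whether replicate libraries represent different cultures, so p-values measure only the spread between these libraries.

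H3K27ac marks active promoters and enhancers, and a peak list records where the mark stood out from background. The short arm of chromosome 3 carries many genes that are deleted or silenced in carcinomas, among them VHL, BAP1, PBRM1 and RASSF1, together with a cluster of chemokine receptor genes. The value used throughout is the length covered by peaks, in kb. Fewer cells carrying the mark, less of the mark per cell and fewer copies of the DNA cannot be told apart in such lists, and neither read depth nor copy number was measured.

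The libraries held 41164 to 56421 peaks that covered 48.0 to 66.4 Mb. Of 10 plasma cell markers, which include SDC1, PRDM1 and IRF4, 9 were covered at a gene end in all 12 libraries, and their summed coverage was 38.7 to 43.2 kb in knockout and 32.3 to 39.6 kb in scramble libraries. The 6 T cell markers summed to 3.54 to 8.30 kb in knockout and 3.81 to 6.45 kb in scramble libraries. The 6 myeloid markers summed to 3.76 to 8.53 kb in knockout and 3.14 to 5.77 kb in scramble libraries. The 6 stromal and epithelial markers summed to 8.97 to 13.3 kb in knockout and 6.74 to 11.4 kb in scramble libraries. Covered in all 12 libraries were also 3 of the T cell, 2 of the myeloid and 4 of the stromal and epithelial markers. LYZ, COL1A2 and DCN were listed at 0 in all 12. The remaining plasma cell marker, SLAMF7, had 0 to 2.67 kb in knockout and was listed at 0 in all scramble libraries. The part of these markers in the results was not tested. At CEBPB itself, on chromosome 20, 2.97 to 3.43 kb were covered in knockout and 3.10 to 3.25 kb in scramble libraries; acetylation around the gene does not check its deletion.

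4 promoter stretches are shown because peaks covered them in all 6 libraries of 1 genotype and in none of the other. Each is the 250 bases upstream of a RefSeq transcription start (GRCh38.p14), 5′ to 3′ on the minus strand, with CpG dinucleotides in capitals. The first 2 belong to alternative starts of OXTR, the oxytocin receptor gene, at chr3:8769233-8769482 and chr3:8768732-8768981. The other two lie upstream of GPX1, which encodes a glutathione peroxidase that reduces peroxides (chr3:49358354-49358603), and upstream of EGOT, a long non-coding RNA transcribed from within ITPR1 (chr3:4751591-4751840).
OXTR, upstream start: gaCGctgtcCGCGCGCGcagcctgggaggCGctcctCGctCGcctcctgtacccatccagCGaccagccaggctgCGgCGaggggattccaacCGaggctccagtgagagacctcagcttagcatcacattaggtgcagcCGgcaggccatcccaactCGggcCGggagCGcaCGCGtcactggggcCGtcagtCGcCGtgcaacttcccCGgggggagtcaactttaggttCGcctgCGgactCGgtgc
OXTR, downstream start: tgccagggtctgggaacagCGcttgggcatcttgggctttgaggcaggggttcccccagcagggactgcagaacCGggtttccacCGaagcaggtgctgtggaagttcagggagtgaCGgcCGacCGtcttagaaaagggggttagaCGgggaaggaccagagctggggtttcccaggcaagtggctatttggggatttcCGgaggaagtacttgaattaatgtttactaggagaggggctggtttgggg
GPX1: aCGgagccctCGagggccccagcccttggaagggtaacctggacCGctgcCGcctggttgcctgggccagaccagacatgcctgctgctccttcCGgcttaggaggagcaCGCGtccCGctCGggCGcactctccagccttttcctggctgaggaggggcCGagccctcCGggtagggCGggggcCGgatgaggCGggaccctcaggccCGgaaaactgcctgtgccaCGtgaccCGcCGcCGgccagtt
EGOT: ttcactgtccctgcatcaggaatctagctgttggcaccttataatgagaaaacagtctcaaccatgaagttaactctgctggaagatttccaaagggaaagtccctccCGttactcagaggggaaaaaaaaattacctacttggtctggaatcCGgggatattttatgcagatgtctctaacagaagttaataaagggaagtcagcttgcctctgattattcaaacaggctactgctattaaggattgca
The OXTR and GPX1 stretches were covered in 0 of 6 knockout and 6 of 6 scramble libraries, and the EGOT stretch in 6 of 6 knockout and 0 of 6 scramble libraries. The stretches held 25 and 8 CpG dinucleotides at OXTR, 20 at GPX1 and 2 at EGOT, against a median of 14 over the 800 RefSeq promoters of the first 60 Mb and 11 over all 35116 promoters. The C/EBP-like letters TTGCNNAA, read on both strands, occurred in none of the 4 stretches, against 9.05% of all promoters, and the glucocorticoid-response-element letters (GNACA and TGTNC with 3 bases between) in none, against 0.327%. These counts describe letters in the windows and say nothing of binding. The 4 stretches, 2 of them of OXTR, were chosen by the knockout contrast and are too few to show a lack of either match. Promoters covered in every scramble and no knockout library made up 0.375% of the 800, against 0.26% on all chromosomes. The reverse held for 0.125%, against 0.209%.

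Knockout libraries had on average less acetylated sequence over the first 60 Mb of chromosome 3 than scramble libraries, and not over the rest of the chromosome. In both parts the ranges of covered length overlapped. Peaks in the first 60 Mb covered 1020, 1105 and 985 kb in KO Dex, 1079, 1056 and 1255 kb in KO DMSO, 1491, 1188 and 1225 kb in SCR Dex, and 1668, 1364 and 1427 kb in SCR DMSO. The highest knockout library lay above the lowest 2 scramble libraries. The mean was 1083 ± 94 kb in knockout and 1394 ± 178 kb in scramble libraries (SD, n = 6 each), a difference of −22.3%. Over the rest of chromosome 3 the means were 2405 ± 262 kb in knockout and 2256 ± 428 kb in scramble libraries, a difference of 6.60%, and the ranges overlapped.

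As a share of all covered sequence on chromosome 3, the genotypes separated completely. The share in the first 60 Mb was 31.9%, 29.4% and 31.0% in KO Dex, 31.5%, 31.9% and 31.0% in KO DMSO, 38.1%, 40.2% and 38.0% in SCR Dex, and 35.7%, 39.7% and 38.5% in SCR DMSO. All 6 knockout libraries lay below all 6 scramble libraries, and the means differed by −7.27 percentage points. The share may still depend on how much was called in a library. Among scramble libraries the most covered, at 66.4 Mb, had the lowest share, 35.7%, and the least covered, at 48.0 Mb, the highest, 40.2%. As a share of the whole library, the first 60 Mb took 1.87% to 1.95% in knockout and 2.43% to 2.57% in scramble libraries, while the rest of the chromosome took 4.14% to 4.51% in knockout and 3.69% to 4.52% in scramble libraries.

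**Figure D1:**
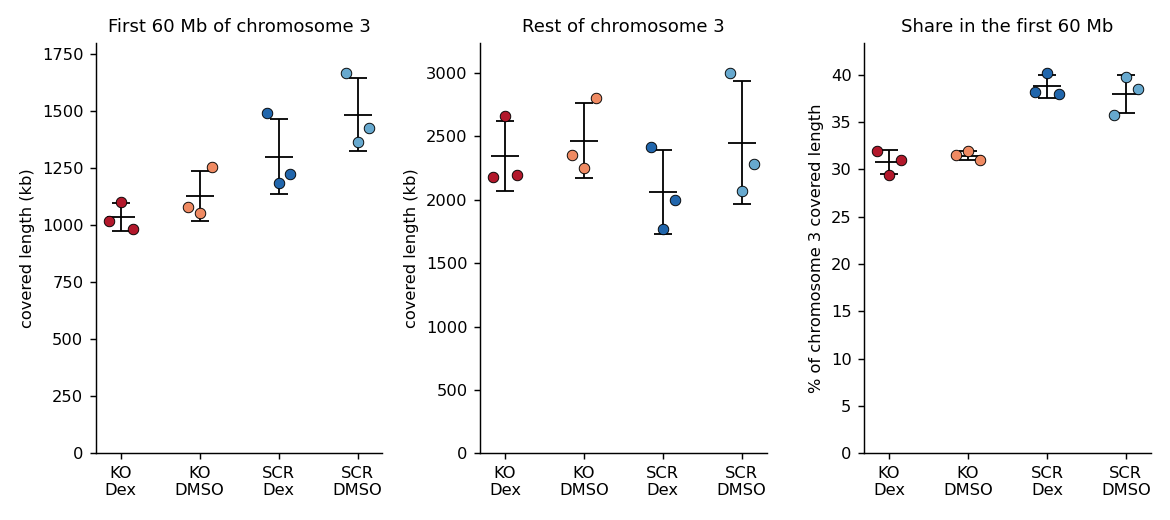
Covered length in kb in the first 60 Mb and in the rest of chromosome 3, and the share of chromosome 3 covered length in the first 60 Mb (%), by group. Points are libraries, bars the mean and SD of 3; the knockout shares of 29.4% to 31.9% all lie below the scramble shares of 35.7% to 40.2%.

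The drug difference averaged over genotypes was 0.04 percentage points (exact two-sided permutation test of treatment labels within genotypes, p = 0.95). The drug response differed between knockout and scramble cells by −1.50 points (same exact permutation test, p = 0.335). The 400 arrangements allow a smallest p of 0.005, and the SD within groups was 1.37 points. As a share of all chromosomes the drug difference had the opposite sign, −0.046 points (exact two-sided permutation test, p = 0.04).

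The lower coverage in knockout was present in each 10 Mb block of the stretch. In blocks of 10 Mb, each taken as a share of the library, all 6 blocks inside had every knockout library below every scramble library, by 18.5% (first 10 Mb) to 31.3% (30 to 40 Mb). Of the 14 blocks outside, 11 had the higher mean in knockout and 3 the lower, with differences of −25.3% to 32.9%. In 3 of them the genotypes did not overlap, 2 being higher and 1 lower in knockout. Blocks of other chromosomes were not counted. The block counts come from the contrast that chose the stretch, and nothing is read from them.

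By 1 Mb window the lower coverage covered the stretch unevenly. Of 59 windows with coverage in at least 3 libraries, 50 were lower in knockout on average and 9 higher, with a median difference of −0.33 on the log2(covered bp + 500) scale. All knockout libraries lay below all scramble libraries in 17 of the 59, and above in 1; over all 2797 windows the same counts were 11.5% and 8.9%. On the rest of chromosome 3, 10 of 135 windows were lower and 12 higher without overlap, and the median difference was 0.12. These counts come from the contrast that singled the stretch out, and nothing is read from them.

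The stretch was not uniform. The first 2 Mb, where the neural adhesion gene CNTN6 lies, had 3.58 ± 0.84 kb covered in knockout and 11.2 ± 2.86 kb in scramble libraries (SD, n = 6 each), a difference of −68.0%. From 2 to 7 Mb, which hold CNTN4, IL5RA and ITPR1, the order was the opposite, with 40.8 ± 3.02 kb in knockout and 33.8 ± 5.70 kb in scramble libraries, or 20.7% more, with overlapping ranges. From 7 to 55 Mb, 44 of 47 windows were lower in knockout on average. The sums were 965 ± 88 kb in knockout and 1267 ± 155 kb in scramble libraries, or −23.8%, again with overlapping ranges. The last 5 Mb differed by −9.32%, with 74.0 ± 6.34 kb in knockout and 81.6 ± 15.9 kb in scramble libraries, and the ranges overlapped.

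The windows at either side of the 60 Mb edge were sparsely covered, and their genotypes overlapped. In the last window inside, 0 to 1.23 kb were covered in knockout and 0 to 0.381 kb in scramble libraries. In the first window outside, 0.457 to 0.740 kb were covered in knockout and 0 to 2.38 kb in scramble libraries. Of the 5 windows on each side of the edge, 0 inside and 2 outside separated the genotypes. Both were higher in knockout: from 62 to 63 Mb, 1.77 to 3.49 kb were covered in knockout and the scramble libraries were listed at 0, and from 64 to 65 Mb, 9.62 to 19.9 kb were covered in knockout and 3.27 to 8.50 kb in scramble libraries. FHIT, a tumour suppressor gene that crosses the edge, had 1.92 to 2.08 kb covered at its ends in knockout and 1.91 to 2.08 kb in scramble libraries.

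The window from 34 to 35 Mb had the lowest knockout value relative to scramble. It was listed at 0 in all 6 knockout libraries, against 3.08, 1.93 and 3.72 kb in SCR Dex and 3.54, 2.39 and 1.91 kb in SCR DMSO. The window from 31 to 32 Mb, which holds OSBPL10, an oxysterol-binding protein gene, was far better covered and showed the same order. It had 11.4, 11.9 and 10.1 kb in KO Dex and 11.3, 11.5 and 13.6 kb in KO DMSO, against 27.1, 25.1 and 30.8 kb in SCR Dex and 39.2, 33.6 and 31.7 kb in SCR DMSO. No knockout library reached the lowest scramble value, and the log2 difference was −1.41. The only window higher in knockout without overlap ran from 3 to 4 Mb, with 8.14 to 12.4 kb in knockout (median 9.96 kb) and 4.93 to 6.30 kb in scramble libraries (median 5.54 kb).

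**Figure D2:**
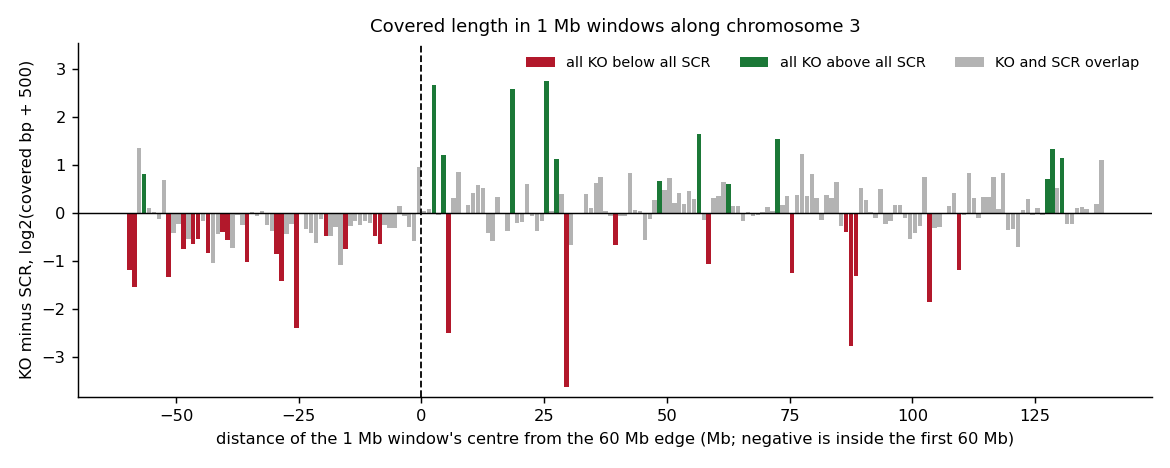
Knockout minus scramble difference of quantile-normalised log2(covered bp + 500) in each 1 Mb window of chromosome 3 (y). The x axis is the distance of the window's centre from the 60 Mb edge in Mb, negative inside. Red and green windows have no overlap in listed covered length between 6 knockout and 6 scramble libraries. Inside, 17 are red and 1 is green.

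Distal peaks carried most of the difference, and peaks at gene ends little of it. Peaks over 10 kb from every protein-coding gene end (distal) covered 474 ± 53 kb of the stretch in knockout and 675 ± 116 kb in scramble libraries, a difference of −29.8%. Peaks within 1 kb of a gene end covered 395 ± 13 kb in knockout and 424 ± 20 kb in scramble libraries, a difference of −6.74%. As shares of their class on chromosome 3, distal peaks stood at 22.3% to 24.4% in knockout and 29.7% to 33.6% in scramble libraries. Peaks from 1 to 10 kb stood at 34.8% to 40.8% in knockout and 47.9% to 51.2% in scramble libraries, and gene-end peaks at 42.4% to 44.3% in knockout and 44.4% to 48.4% in scramble libraries. No class overlapped between genotypes in its share.

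Weak peaks differed more than strong ones. Peaks with a −log10 q of at least 2 covered 821 ± 29 kb in knockout and 927 ± 51 kb in scramble libraries, a difference of −11.4% with no overlap. Weaker peaks covered 262 ± 71 kb in knockout and 467 ± 145 kb in scramble libraries, a difference of −43.9% with overlap. On the rest of chromosome 3 the strong and weak classes differed by 7.93% and 4.36%. Within each list, the deposited fold enrichment of peaks in the stretch had a median of 3.37 to 3.61 in knockout and 3.01 to 3.62 in scramble libraries; these are the authors' values per peak and are not compared between lists.

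**Figure D3:**
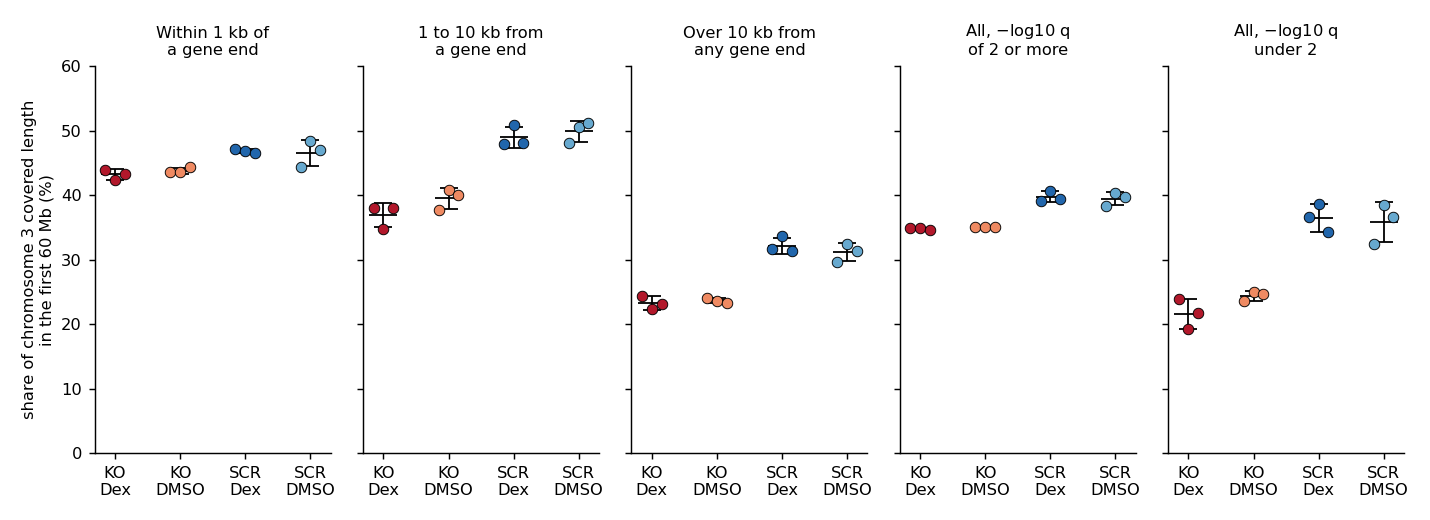
Share of chromosome 3 covered length that lay in the first 60 Mb (%), by group, for peaks by distance to the nearest gene end and for strong and weak peaks. Points are libraries, bars the mean and SD of 3; distal shares are 22.3% to 24.4% in knockout and 29.7% to 33.6% in scramble libraries, and gene-end shares lie closer together.

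Distal sites listed in scramble and at 0 in every knockout library ran from chr3:775168-776121 to chr3:55244331-55245685. They were unevenly spaced, with some close together and long gaps between others. Of 686 distal consensus peaks, 78 had all knockout libraries below all scramble libraries and 13 the reverse, against 6.19% and 5.32% of the 35665 distal consensus peaks of all chromosomes; the median log2 difference was −0.13. In 36 of the 78 all 6 knockout libraries were listed at 0, and in 5 of the 13 all 6 scramble libraries were. The 78 lay inside a gene in 39.7% of cases and a median of 67.2 kb from the nearest gene end. The 13 higher in knockout lay inside a gene in 84.6% of cases and a median of 92.8 kb away. For the 595 whose genotypes overlapped, these values were 73.9% and 32.7 kb. The sets were formed by the contrast that chose the stretch, and nothing is read from these places. Of 305 gene-end consensus peaks 14 were lower and 6 higher without overlap, against 2.18% and 3.81% over all chromosomes, and of the 320 in between 9 were lower and 6 higher, against 2.07% and 3.91%.

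The distal peak of largest difference lay at chr3:43996138-43999555 (hg38), in an intergenic stretch 242 kb from TOPAZ1, a gene known from the testis. It was listed at 0 in all 6 knockout libraries, against 3.42, 3.27 and 3.28 kb in SCR Dex and 3.36, 3.36 and 3.19 kb in SCR DMSO. A second, at chr3:31925052-31928510 inside OSBPL10, was listed at 0 in all knockout libraries, against 3.46, 3.36 and 3.25 kb in SCR Dex and 2.70, 3.39 and 1.94 kb in SCR DMSO. Both sites were thus broad peaks in every scramble library, with or without the drug, and in no knockout library.

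The next 3 were also listed at 0 in all knockout libraries. The peak at chr3:14016699-14018669, 93.4 kb from CHCHD4, a gene of mitochondrial protein import, had 1.92 to 1.96 kb covered in scramble libraries, nearly its whole length. The peak at chr3:858442-860552, 232 kb from CNTN6, had 1.36 to 2.11 kb, and the peak at chr3:51813436-51815918, 11.0 kb from IQCF3, had 0.376 to 2.48 kb. All 5 were ranked by the contrast that chose the stretch.

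Of the 5 distal peaks most above scramble in knockout, 4 lay inside a gene, with 2 of them in ERC2. The peak at chr3:4749632-4752001, inside ITPR1, an endoplasmic reticulum calcium channel gene, and over the EGOT promoter shown above, had 2.37, 2.37 and 2.26 kb in KO Dex and 2.37, 2.24 and 2.26 kb in KO DMSO and was listed at 0 in all 6 scramble libraries. A peak at chr3:55946995-55947899 inside ERC2, which encodes a protein of the presynaptic active zone, had 0.641 to 0.868 kb in knockout and was listed at 0 in scramble libraries. A second ERC2 peak, at chr3:55672480-55675722, had 2.02 to 3.24 kb in knockout and 0.766 to 1.89 kb in scramble libraries. The remaining 2 were a peak at chr3:47140509-47141380 inside SETD2, the histone H3 lysine 36 methyltransferase gene, with 0.679 to 0.872 kb in knockout and 0 to 0.594 kb in scramble libraries, and a peak at chr3:56533463-56534608, 22.5 kb from CCDC66, with 0.310 to 1.10 kb in knockout and listed at 0 in scramble libraries.

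At gene ends, taken as the sequence within 5 kb of either end of a protein-coding gene, few genes separated the genotypes. Of 376 genes covered in at least 3 libraries, 17 were lower in knockout without overlap and 4 higher, against 2.16% and 3.54% of 14708 genes on all chromosomes. A small shift was common: 285 of the 376 were lower on average, with a median of −0.08 on the log2(covered bp + 500) scale, against 7568 of the 14708. The rest of chromosome 3 had 8 lower and 16 higher of 459.

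Receptor and ligand genes are given first among those lower in knockout. OXTR had 0, 0.465 and 0 kb in KO Dex and 0.388, 0 and 0.284 kb in KO DMSO, against 3.72, 3.09 and 3.63 kb in SCR Dex and 3.76, 5.97 and 3.90 kb in SCR DMSO. The lowest scramble value was well above the highest knockout value, and the log2 difference was −2.86. The windows of OXTR and its neighbour CAV3, which had 0 to 2.45 kb in scramble libraries, overlap, so they are not separate observations. The OXTR consensus peak at chr3:8766371-8769476 holds the downstream promoter stretch shown and most of the upstream one. It was listed at 0 in all knockout libraries and had 2.98 to 3.11 kb in scramble libraries. THRB, the thyroid hormone receptor beta gene, was listed at 0 in all knockout libraries, against 1.02, 0.683 and 0.935 kb in SCR Dex and 0.894, 1.02 and 0.978 kb in SCR DMSO. Its 2 RefSeq promoters were covered in 0 of 6 knockout libraries each, against 5 of 6 and 2 of 6 scramble libraries. WNT7A, which encodes a secreted WNT ligand, was likewise listed at 0 in knockout, with 0.164 to 1.25 kb in scramble libraries.

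TGFBR2, the type II receptor of TGF-β, kept some coverage in knockout: 0.730, 0.870 and 0.706 kb in KO Dex and 0.723, 0.884 and 0.590 kb in KO DMSO, against 1.72, 1.10 and 1.36 kb in SCR Dex and 1.68, 1.28 and 1.44 kb in SCR DMSO. The genotypes did not overlap, and the log2 difference was −0.66. A TGFBR2 promoter was covered in 3 of 6 knockout and 6 of 6 scramble libraries. HRH1, the histamine H1 receptor gene, had 0 to 0.524 kb in knockout and 0.789 to 1.75 kb in scramble libraries. MYD88, the adaptor of Toll-like and interleukin 1 receptors, had 1.36 to 2.14 kb in knockout and 2.17 to 2.44 kb in scramble libraries, so its genotypes separated narrowly.

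Among genes that act inside the cell, SATB1, which encodes a chromatin organiser of lymphocytes, was listed at 0 in all 6 knockout libraries, against 0.721, 0.422 and 1.40 kb in SCR Dex and 0.732, 1.27 and 1.37 kb in SCR DMSO. An alternative SATB1 start inside the gene was covered in 6 of 6 knockout and 6 of 6 scramble libraries, so the gene as a whole was not without the mark. GPX1 had 1.01, 0.972 and 1.01 kb in KO Dex and 1.43, 1.12 and 1.12 kb in KO DMSO, against 2.69, 2.05 and 2.20 kb in SCR Dex and 2.58, 2.24 and 2.29 kb in SCR DMSO. Its own consensus peak at chr3:49357845-49359141, over the promoter shown, was listed at 0 in all knockout libraries and had 1.15 to 1.30 kb in scramble libraries. RHOA, a small GTPase gene next to GPX1, had 1.63 to 2.01 kb in knockout and 2.75 to 3.58 kb in scramble libraries, but its window overlaps that of GPX1. The RHOA promoter itself was covered in 6 of 6 knockout and 6 of 6 scramble libraries.

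The other genes lower without overlap were ZNF445 (0 to 0.743 kb in knockout, 0.897 to 2.04 kb in scramble libraries), TMEM42 (listed at 0 in knockout, 0.285 to 2.68 kb in scramble libraries), the fibulin gene FBLN2 (0 to 0.451 kb in knockout, 0.613 to 2.31 kb in scramble libraries), SYN2, ZNF860, ZNF197, LOC124909484 and LOC105377015. The FBLN2 promoters were covered in 0 knockout libraries each, and in 1 and 0 scramble libraries. The windows of LOC105377015 and TGFBR2 overlap, so they are not separate observations. Near its end RAD54L2, a helicase gene, had a consensus peak listed at 0 in knockout, with 0.793 to 1.23 kb in scramble libraries.

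Genes higher in knockout without overlap were an interleukin receptor, a neural adhesion molecule and a pair of neighbouring chemokine receptors. IL5RA, the alpha chain of the interleukin 5 receptor, had 2.63, 3.55 and 3.43 kb in KO Dex and 1.50, 3.68 and 4.30 kb in KO DMSO, against 0.651, 0.721 and 0.324 kb in SCR Dex and 0.785, 0.810 and 0.752 kb in SCR DMSO. The knockout values were all higher, the log2 difference being 1.61. The IL5RA promoter itself was covered in 6 of 6 knockout and 5 of 6 scramble libraries. CNTN4, which encodes a contactin, had 1.06 to 1.42 kb in knockout and was listed at 0 in all scramble libraries. Its RefSeq promoters were covered in 0 knockout and 0 scramble libraries, and its window overlaps that of IL5RA. CCR3 had 4.70 to 5.25 kb in knockout and 2.98 to 4.56 kb in scramble libraries, and CCR1 3.86 to 4.08 kb in knockout and 3.40 to 3.70 kb in scramble libraries, a log2 difference of 0.07.

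**Figure D4:**
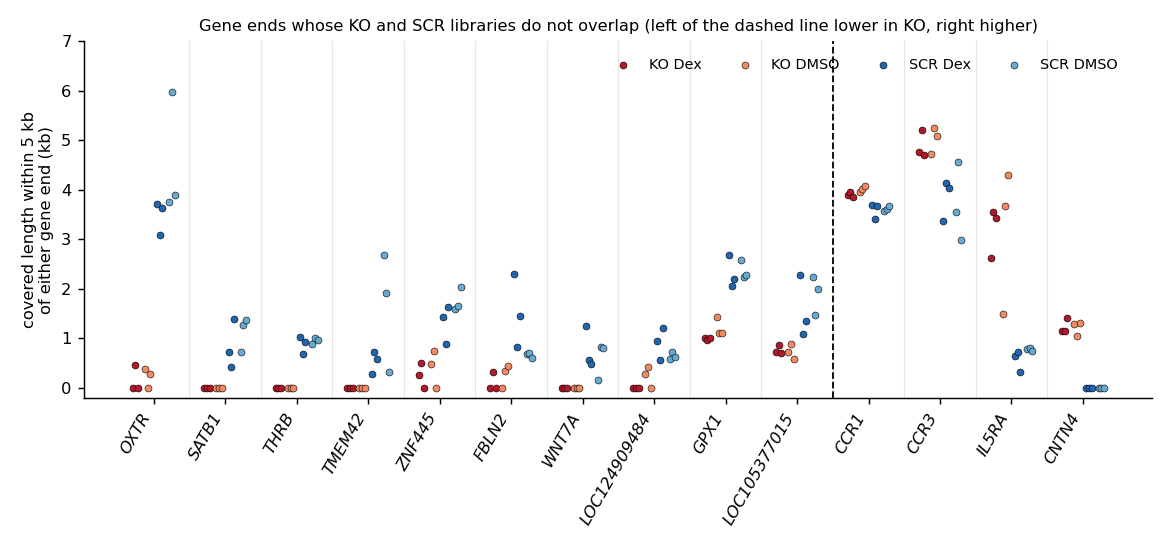
Covered length within 5 kb of either gene end (kb, y) in each library for 10 genes lower and 4 genes higher in knockout without overlap (x), coloured by group. OXTR lies at 0 to 0.465 kb in knockout and 3.09 to 5.97 kb in scramble libraries; SATB1, THRB, TMEM42 and WNT7A are listed at 0 in knockout and CNTN4 in scramble libraries.

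The medians of most gene lists lay near that of all gene ends in the stretch, where 4.52% were lower and 1.06% higher without overlap, against 2.16% and 3.54% on all chromosomes. These counts come from the contrast that chose the stretch, and nothing is read from them. Of 21 tumour suppressor genes tested, 1 (TGFBR2) was lower and 0 were higher without overlap, 18 were lower on average, and the median log2 difference was −0.08, the same as over all 376 genes. DLEC1, a candidate tumour suppressor gene, had 0 to 1.31 kb in knockout and 0.351 to 2.22 kb in scramble libraries, a log2 difference of −0.99 with overlap. SEMA3F, which encodes a secreted semaphorin, had 0 to 1.40 kb in knockout and 0.458 to 2.23 kb in scramble libraries, a log2 difference of −0.93 with overlap. VHL had 1.31 to 1.53 kb in knockout and 1.29 to 1.55 kb in scramble libraries, and RASSF1 5.58 to 5.74 kb in knockout and 5.40 to 5.77 kb in scramble libraries. Of 9 chemokine receptor genes 2 were higher without overlap, 6 were higher on average, and the median was 0.07; the 2, CCR1 and CCR3, have overlapping windows and are not separate observations. CCR9, a gut-homing receptor gene, had 0.412, 0.612 and 0.878 kb in KO Dex and 1.46, 0 and 2.31 kb in KO DMSO and was listed at 0 in all scramble libraries.

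Of 17 signalling genes 3 were lower without overlap (MYD88, RHOA and WNT7A), with a median of −0.18. Of 4 nuclear receptor and clock genes 1 was lower (THRB), with a median of −0.19, and of 13 chromatin and transcription genes 1 was lower (SATB1), with a median of −0.07. None of 11 secretory pathway genes and none of 12 ribosomal and housekeeping genes separated, with medians of −0.06 for both. Of 5 neural genes 1 was higher (CNTN4), with a median of −0.06. In none of the 8 lists did a gene end pass the test for the drug or for the difference in drug response.

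Whole promoters, defined as 300 bases around a RefSeq start with at least 150 covered, differed at few genes. Of 800 in the stretch, 326 to 342 were covered in knockout and 351 to 383 in scramble libraries, and 294 in all 12. The 3 covered in every scramble and no knockout library were those of OXTR and GPX1, or 0.375% of the 800, against 0.26% of 34961 promoters on all chromosomes. The 1 covered in every knockout and no scramble library was that of EGOT, or 0.125%, against 0.209%.

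The drug could be tested in the stretch because it played no part in choosing it, and few sites were called. Calls past the adjusted threshold were no more frequent in the stretch than over all chromosomes. No 1 Mb window passed limma at an adjusted p of 0.05 for the drug averaged over genotypes, against 0.536% of all windows, and 11 of 59 (18.6%) had an unadjusted p under 0.05, against 11.8% of all windows. No gene end passed, against 0.136% of all genes, and 34 of 376 (9.04%) had an unadjusted p under 0.05, against 7.05% of all. The gene ends of smallest p were those of CAV3, GHRL and ZNF197, with adjusted p of 0.17, 0.281 and 0.359. For consensus peaks 5 of 1311 rose and 3 fell with limma, against 0.594% and 0.308% of all 60433 peaks; the 8 together stand beside 0.902%.

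The clearest drug site lay inside ANKRD28, which encodes a regulatory subunit of protein phosphatase 6, at chr3:15794411-15798257, 61.6 kb from the gene's nearer end. It had 3.85, 3.80 and 3.85 kb covered in KO Dex, against 1.27, 1.13 and 1.07 kb in KO DMSO, and 3.85, 3.85 and 3.85 kb in SCR Dex, against 1.28, 1.00 and 1.27 kb in SCR DMSO. All 6 drug-treated libraries were covered nearly end to end, and the highest DMSO library reached 1.28 kb. The log2 difference was 1.39 ± 0.05 (SE; limma adjusted p = 4.7e-06), and the drug response differed between genotypes by 0.03 ± 0.09 (limma adjusted p = 0.99).

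The right end of the site holds an alternative ANKRD28 promoter, whose 250 bases upstream of the RefSeq start (GRCh38.p14, minus strand, chr3:15797980-15798229) are shown with letters that match TTGCNNAA in capitals because the site had a large drug difference and overlaps a promoter.
ANKRD28, internal start: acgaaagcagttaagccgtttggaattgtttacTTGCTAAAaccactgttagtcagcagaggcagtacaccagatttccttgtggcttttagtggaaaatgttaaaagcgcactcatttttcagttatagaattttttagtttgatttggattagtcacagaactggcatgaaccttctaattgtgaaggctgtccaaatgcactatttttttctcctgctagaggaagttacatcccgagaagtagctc
It holds 4 CpG dinucleotides. The letters TTGCNNAA, read on both strands, occur in it at 1 place and the glucocorticoid-response-element letters at none; 9.05% and 0.327% of all promoters hold them, and a match of letters is not a site. The promoter was covered in 6 of 6 knockout and 6 of 6 scramble libraries, and the sequence added with dexamethasone lies on its gene-body side. The ANKRD28 site was 1 peak in each of the 12 lists. It was 3.80 to 3.92 kb wide in the 6 dexamethasone libraries and 1.00 to 1.28 kb wide in the 6 DMSO libraries, and its right edge lay between 15798230 and 15798266 in all 12. The authors' fold enrichment over the wider peak was 3.09 to 3.27 with dexamethasone and 3.56 to 4.29 over the narrower peak with DMSO. Because a value cannot exceed the width of the consensus peak, the spread among the dexamethasone libraries is held down. The 2 other consensus peaks within 100 kb had log2 differences of 0.03 and 0.11 and missed the threshold.

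2 further drug sites were covered in more than 6 libraries. A peak inside XCR1, which encodes the receptor of the chemokine XCL1, at chr3:46029572-46031765, had 1.31, 1.65 and 1.91 kb in KO Dex, against 1.02, 0.838 and 1.47 kb in KO DMSO, and 1.61, 2.02 and 2.19 kb in SCR Dex, against 0.868, 0.859 and 1.11 kb in SCR DMSO. It rose by 0.60 ± 0.11 on the log2 scale (limma adjusted p = 0.0469); the scramble groups did not overlap and the knockout groups did. Leaving out any of 10 of the 12 libraries took the adjusted p above the threshold, up to 0.126. A peak inside CDC25A, a phosphatase gene that drives the cell cycle, at chr3:48158989-48160178, was listed at 0 in all 3 KO Dex libraries, against 1.16, 0.328 and 0.856 kb in KO DMSO, and had 0.284, 0 and 0.411 kb in SCR Dex, against 1.18, 1.10 and 1.19 kb in SCR DMSO. It fell with the drug (limma adjusted p = 0.0135), the dexamethasone libraries lay below the DMSO libraries in both genotypes, and it was 1.84 kb from the gene's end. The call was lost at equal covered length (limma adjusted p = 0.602) and with a consensus of 2 or 6 libraries (limma adjusted p = 0.053 and 0.0679).

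The other 5 drug calls rest on 3 to 5 covered libraries each. A peak inside RFTN1, a lipid raft protein gene, at chr3:16399616-16400332, had 0.240 kb in 1 KO DMSO library and 0.293 kb in 1 SCR Dex library, and 0.653, 0.717 and 0.717 kb in SCR DMSO, and was listed at 0 elsewhere (limma adjusted p = 0.0264). That call held in 3 of 8 alternatives, with limma adjusted p up to 0.115, and leaving out a library took it up to 0.0934. A peak inside IRAK2, a kinase gene of interleukin 1 receptor signalling, at chr3:10213282-10213639, was listed at 0 in all knockout libraries, with 0.358, 0.358 and 0.269 kb in SCR Dex and 0.239, 0 and 0 kb in SCR DMSO (limma adjusted p = 0.0274). That call held in 4 of 9 alternatives, with limma adjusted p up to 0.959 at equal covered length, and leaving out a library took it up to 0.102. The RFTN1 and IRAK2 peaks were each covered in all 3 libraries of the group where they are high, which alone meets the consensus rule. At each, 2 values equal the full width of the consensus peak, which holds the spread down. Neither p is read as support. The last 3 were covered in exactly the 3 libraries of 1 group: at chr3:43872351-43873131 in SCR DMSO, at chr3:33041887-33042257 inside GLB1 in KO Dex, and at chr3:40366748-40367094 in SCR Dex. A consensus peak needs 3 covered libraries, so such a peak has the same value in each by construction and had to differ, and its p is not read as support.

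Limma called a difference in drug response between genotypes at 5 consensus peaks, 2 of them positive and 3 negative. Of all consensus peaks 0.248% and 0.263% were called, or 0.511% in either direction. Of these 309 calls over all chromosomes, 147 were seen in 1 group only. No window and no gene end passed, against 0.0% and 0.0272% over all chromosomes, while 5 windows (8.47%) and 19 gene ends (5.05%) had an unadjusted p under 0.05, against 6.08% of all windows and 4.64% of all gene ends. Of the 5 peaks 3 were the single-group peaks above and 1 was the IRAK2 peak, whose call held in 3 of 9 alternatives and reached a limma adjusted p of 0.143 on leaving out a library. The other lay inside HRH1 at chr3:11151859-11153141. It was listed at 0 in all 3 KO Dex libraries, against 0.811, 0.450 and 0.684 kb in KO DMSO, and had 1.12, 1.23 and 1.28 kb in SCR Dex, against 0.910, 0.998 and 1.28 kb in SCR DMSO. The knockout groups did not overlap and the scramble groups did, and the difference of responses was −1.32 ± 0.21 on the log2 scale (limma adjusted p = 0.0226). Leaving out 1 of 6 libraries took its adjusted p above the threshold, up to 0.0835, and with peaks of −log10 q of at least 2 the difference was 0.14 (limma adjusted p = 0.997).

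The counts of drug calls depended on single libraries. The 8 calls for the drug became 5 without KO Dex replicate 3 or SCR Dex replicate 2, 17 without SCR DMSO replicate 1 and 19 without SCR Dex replicate 1. The 5 calls for the difference of responses became 3 without KO Dex replicate 1 or 3 or SCR DMSO replicate 2 or 3, 8 without KO DMSO replicate 1 and 11 without SCR Dex replicate 1.

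**Figure D5:**
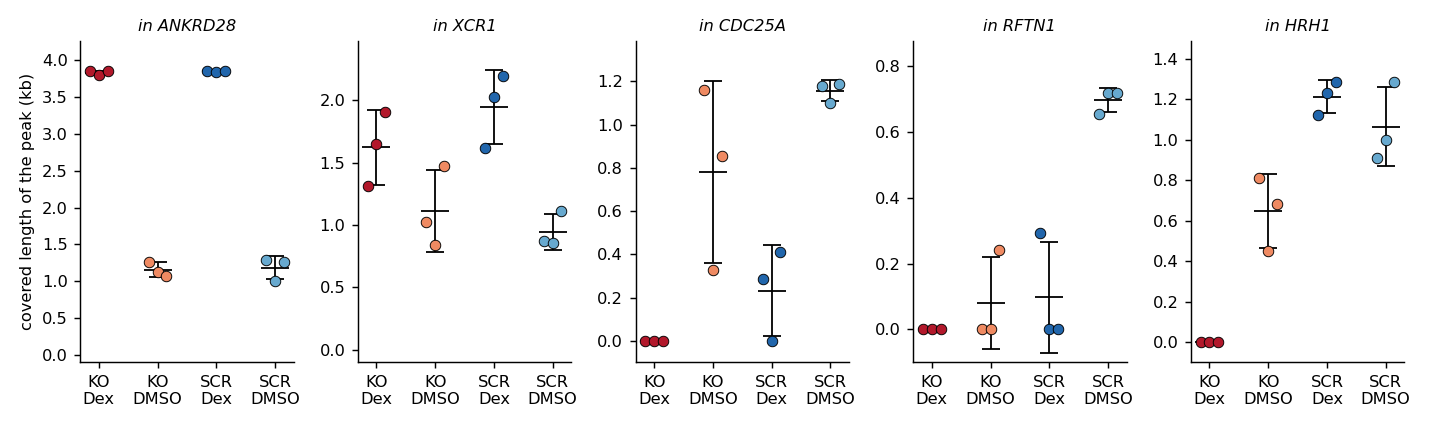
Covered length (kb, y) of the 5 consensus peaks of the stretch that passed limma for the drug or for the difference of drug responses and were covered in at least 5 libraries, by group (x). Points are libraries, bars the mean and SD of 3; the peak inside ANKRD28 is 3.80 to 3.85 kb with dexamethasone and 1.00 to 1.28 kb with DMSO in both genotypes.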

How the data were processed

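The 12 files are lists of H3K27ac broad peaks, 1 per library, from RPMI 8226 cells in 4 groups of 3. The submitters' processing notes name the hg38 build, Bowtie2 2.4.2 and MACS3 3.0; no control library is named in the sources used here. The deposited start and end columns are positions, a unit recorded as other, and the deposited score, the fold enrichment (a ratio) and the −log10 p and −log10 q columns are the authors' values per peak. The lists hold no counts, so depth is unknown and no counting interval can be given.

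Covered base pairs were summed in 1 Mb windows, within 5 kb of gene ends (RefSeq gene table, GRCh38.p14) and in consensus peaks (covered in at least 3 libraries, stretches under 500 bp apart joined). Values were log2(bp + 500), quantile-normalised, for features covered in at least 3 libraries, and the dexamethasone and interaction contrasts were fitted over all features of chromosomes 1 to 22 and X with limma 3.58.1 in R 4.3.3 (trend, robust, 8 residual degrees of freedom), adjusted by Benjamini-Hochberg at 0.05. The fit was tested on simulated data. Knockout against scramble is given without a test. The region, members, lists and tests were chosen with earlier results of these data known. Named were up to 10 lower and 10 higher gene ends without overlap (17 and 4 qualified), 5 lower and 5 higher distal peaks and windows of largest knockout difference, the 5 windows on each side of 60 Mb, the 3 smallest p per tested contrast, up to 3 genes per list, CEBPB and FHIT. The other peaks past the threshold, the promoters and further genes of 5 or fewer per count were added after their values were seen. The 8 gene lists are described by counts. A gene that the naming rule covers is not reported here. The other software was pandas 2.3.3, Matplotlib 3.10.9, NumPy 2.4.6 and SciPy 1.17.1 under Python 3.11.15. Alternatives covered peak quality, equal covered length, each library left out, normalization, pseudocount, filters, window and distance sizes, and a replicate block.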

Additional observations from a re-analysis of the deposited data

Results flagged for a closer look

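Limma's interaction test called 5 consensus peaks for a difference in dexamethasone response between knockout and scramble cells, on the log2(covered bp + 500) scale. In each a group is listed at 0, so the fitted value depends on the pseudocount and is not a fold change. The peak at chr3:43872351-43873131, listed only in the 3 SCR DMSO libraries at 0.781 kb each, had a difference of 1.34. The peak at chr3:33041887-33042257 inside GLB1, listed only in the 3 KO Dex libraries at 0.371 kb each, had 0.82. The peak at chr3:40366748-40367094, listed only in the 3 SCR Dex libraries at 0.347 kb each, had −0.79. Each of these 3 peaks has 1 shared value by construction and had to differ, so its call is not read as support. The peak inside HRH1 had −1.32, with 0 kb in KO Dex, 0.648 ± 0.183 kb in KO DMSO, 1.21 ± 0.08 kb in SCR Dex and 1.06 ± 0.19 kb in SCR DMSO (SD, n = 3 each). The peak inside IRAK2 had −0.72, being listed at 0 in all knockout libraries.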

How the results depend on the processing

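Knockout minus scramble values of named features moved by less than the spread in 1715 of 1870 settings, and the sign of every one whose genotypes did not overlap held. The knockout difference in share was −7.27 points, and −4.66 with −log10 q of at least 2, −13.1 below 2, −3.20 at gene ends, −11.2 from 1 to 10 kb, and −0.57 points as a share of all chromosomes; without a library it was −7.83 to −6.84. The drug difference in share of 0.038 points was −0.042 with −log10 q of at least 2, −0.19 at equal covered length, −0.13 by number of peaks, −0.0052 in 500 bp bins, −0.0095 without 2 to 7 and 55 to 60 Mb, −0.046 as a share of all chromosomes (exact permutation p = 0.04), and −0.52 to 0.47 without a library; the interaction was 0.021 as a share of all chromosomes and −2.37 to −0.39 without a library.

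Windows called for the drug numbered 1 at 500 kb and 1 at 2 Mb, and 0 to 1 without a library (1 without KO DMSO replicate 1, SCR DMSO replicate 2 or 3). Gene ends called numbered 4 for the drug and 3 for the interaction at equal covered length, and 0 to 2 for the drug without a library (1 without KO Dex replicate 1, 2 without KO DMSO replicate 1). Consensus peaks called for the drug numbered 3 with a filter of 6 libraries, 5 with −log10 q of at least 2, 5 with a consensus of 2 libraries, and 5 to 19 without a library. For the interaction they numbered 9 unnormalised, 8 scaled to the total, 1 with a filter of 6 libraries, 9 without trend and robust options, 2 with −log10 q of at least 2, 9 at equal covered length, 2 and 3 with a consensus of 2 and 6 libraries, and 3 to 11 without a library.

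Counts without overlap were, for windows, 11 of 30 lower at 2 Mb, 27 of 59 lower when scaled to the total, 2 higher with −log10 q of at least 2 and at equal covered length, 3 higher at 500 kb, 0 higher without 2 to 7 and 55 to 60 Mb, and 17 to 22 lower and 1 to 2 higher without a library (2 without SCR Dex replicate 1). For gene ends, 7 were higher with −log10 q of at least 2, 2 when scaled and 2 without 2 to 7 and 55 to 60 Mb, with 17 to 23 lower and 4 to 8 higher without a library (8 without KO DMSO replicate 2). For distal peaks, 46 were lower and 8 higher of 265 over 50 kb from a gene end, 5 were higher without 2 to 7 and 55 to 60 Mb, and without a library 78 to 88 were lower and 13 to 18 higher.

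With −log10 q of at least 2 the interaction was 0.44 at PLCD1 and 0.14 at the HRH1 peak, both with the sign turned. The ANKRD28 call held in all 24 settings (0.89 to 1.66). Same-numbered libraries correlated at −0.09 to 0.15, with 2 of 18 pairs over 0.1, and other pairs at −0.13 to 0.13. These values gave no sign that the numbers pair the samples, but so few libraries cannot settle it. With a replicate block consensus peak calls were 5 for the drug and 2 for the interaction, and the share's exact permutation p was 0.938. The cause of these changes was not tested. Unknown depth and absent copy-number data limit every value.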
